A study of Mus musculus with 4 samples.

Results

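The genes of the AP-1 transcription factor that were followed here are Fos, Fosb, Fosl1, Fosl2, Jun, Junb and Jund, together with the related Atf3 and Batf3. They are 9 of the 24418 genes listed, found by their symbols, and all 9 were present. Of these, 8 passed the filter on low values (normalized counts of 10 or more in 2 or more libraries), which left 11392 genes in all. Batf3 did not. The RNA came from regulatory T (Treg) cells of Foxp3YFP-Cre mice aged 8 to 12 weeks. These mice carry a fluorescent Cre fusion in the Foxp3 locus, the locus of the lineage-defining factor of Treg cells, and the cells were sorted from spleen and lymph nodes by CD4 and the fluorescent protein. PBS and TSLP cells alike carried this allele, and no other allele or agent was named. The sorted cells were kept for 3 h with TSLP at 100 ng/mL, a cytokine of epithelial and stromal cells that signals through a receptor sharing the IL-7 receptor alpha chain, or with PBS. Each group had 2 libraries, called PBS 1, PBS 2, TSLP 1 and TSLP 2 below. They held 11328132, 10724392, 11761234 and 10271571 reads on genes. The labels do not say what the numbers 1 and 2 mark, or that the libraries came from separate mice, so the p-values measure only the spread between these libraries, which may be technical. All results are from bulk RNA, in which fewer cells of a kind and less RNA per cell cannot be told apart.

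AP-1 is a pair of basic leucine zipper (bZIP) proteins that grip DNA together. Jun proteins pair with each other or with Fos proteins, whereas Fos proteins need a partner, and ATF and BATF proteins join the same network. Several of the genes, such as Fos and Jun, are classic immediate early genes. MAP kinases, calcium and cyclic AMP switch on factors already bound at their promoters. The short-lived mRNAs then appear within minutes of T cell receptor signalling, of a cytokine or of handling stress. In T cells, AP-1 binds side by side with NFAT at cytokine genes. Foxp3 can take the place of AP-1 beside NFAT, and Junb and Batf take part in the effector programme of Treg cells.

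The stretches of promoter shown here, 1 for each gene, carry the letters TGACG, the shared core of the cyclic AMP response element (CRE), or the Jun promoter's own AP-1-like element, in RefSeq windows of 300 bases around the RefSeq start site (GRCm38.p6). They are written 5′ to 3′ on the strand of the gene, with the motif in capitals.
Fos, chr12:85473802-85473850, plus strand: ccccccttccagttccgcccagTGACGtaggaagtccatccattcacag
Fosb, chr7:19310079-19310127, minus strand: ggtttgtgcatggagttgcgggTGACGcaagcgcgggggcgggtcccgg
Junb, chr8:84978828-84978876, minus strand: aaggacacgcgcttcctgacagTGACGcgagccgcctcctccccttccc
Atf3, chr1:191183334-191183362, minus strand: ctggaagctattaatagcattaCGTCAgc
Jun, chr4:95052238-95052289, minus strand: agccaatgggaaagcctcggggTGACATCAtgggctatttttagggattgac
In Atf3 the match is on the reverse strand, so that the letters read CGTCA here. Fos holds a second TGACG, at bases −129 to −125. Counted back from the start site in RefSeq, the motif ends at base −62 in Fos, −56 in Fosb, −102 in Junb, −3 in Atf3 and −38 in Jun. The RefSeq start of Atf3, base 191183333, lies inside the gene as GENCODE draws it, and that of Jund, base 70697739, lies upstream of the GENCODE gene. Promoter windows were found for 8 of the 9 genes. TGACG was searched on both strands after the values were seen, and 4 of the 8 windows held it, against 20.8% of all 32851 promoter windows. Of the longer motifs, TGACATCA was in 1 of the 8 (Jun) and in 3.62% of all windows. The full CRE TGACGTCA, the AP-1 site TGAGTCA, the letters TGACGTTT and the CArG box of serum response factor were in none of the 8, and in 1.79%, 5.2%, 0.39% and 1.63% of all windows. TGACGTCA and TGACGTTT contain TGACG, so these searches overlap. A match describes the sequence and does not show that a factor was bound. The absence of a motif covers these windows only. For Fos the window ran from base 85473640 to 85473939, with the start site at 85473890, and sequence further upstream was not searched.

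To set the genes side by side, reads were scaled to the exon length from GENCODE M21 and to the library's reads on genes (RPKM). Junb had the highest level, with a mean of 755 RPKM over the 4 libraries (530 to 1096). Fos followed with 263 RPKM (169 to 410), below the range of Junb. Jund had 192 RPKM (169 to 256). It lay under Fos in 3 of 4 libraries, and the ranges overlapped.

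Fosl2, which encodes FRA-2, had 101 RPKM (93.2 to 113) and lay below Jund without overlap. Fosb, with 97.8 RPKM (62.9 to 128), was under Fosl2 in 2 of 4 libraries only, so this order is not beyond their spread. Atf3, a stress-induced partner of Jun, had 65.4 RPKM (43.1 to 90.1), and Jun 52.1 (39.8 to 68.1). Fosb was above Atf3 and Atf3 above Jun in each of the 4 libraries, although the ranges over libraries overlapped. Fosl1, which encodes FRA-1, and Batf3, a bZIP factor best known from dendritic cells, stood far lower at 0.781 and 0.304 RPKM.

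Junb made up a steady share of the summed RPKM of the 9 genes. Its share was 51.2% and 48.0% in PBS 1 and PBS 2 and 49.4% and 47.7% in TSLP 1 and TSLP 2. The share of Fos was 19.1%, 15.01%, 17.8% and 15.2% in the same order, higher in both libraries numbered 1. That of Fosl2 was 4.36%, 8.36%, 7.02% and 8.39%, with PBS 1 the lowest. Together the 9 genes took 0.603%, 0.391%, 0.494% and 0.342% of the reads on genes.

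**Figure D1:**
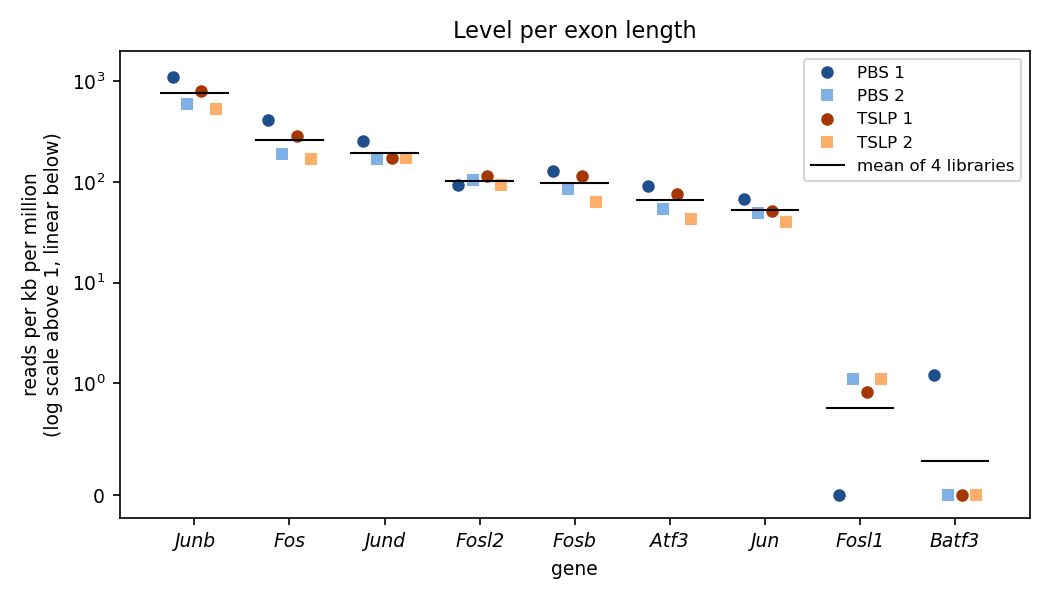
Level of each of the 9 AP-1 genes in RPKM (vertical axis, log scale above 1 and linear below), with 1 point per library, circles for libraries numbered 1, squares for those numbered 2, and a line at the mean of the 4 libraries. Junb stands above the other genes in each library, and Fosl1 and Batf3, with points at 0, lie far below the rest.

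The first comparison asks whether TSLP changed the AP-1 mRNAs of Treg cells. No AP-1 gene passed the test, and for each of the 7 abundant genes the groups overlapped. With limma at an adjusted p under 0.05, 0 of the 8 genes were called, and the background was 0% of the 11392 genes. At an unadjusted p under 0.05 it was again 0 of 8, against 1.69% of all genes (192 genes, with 234 by edgeR and 234 by DESeq2, both also with 0 genes at an adjusted p under 0.05). For 0 of the 8, both TSLP values exceeded both PBS values (14.5% of all genes), and for 0 of the 8 both were lower (14.4%). Over the 8 genes the median log2 difference between TSLP and PBS was −0.28, and over all genes it was 0.01. The median of the 8 was 0.12 without TSLP 2, 0.04 without PBS 1, −0.59 without TSLP 1 and −0.60 without PBS 2. With 2 libraries against 2, an exact permutation test of a single gene cannot give a p below 0.333.

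Among the Fos family, Fos (chromosome 12, 85473890 to 85477273, GRCm38) had normalized counts of 10585 and 4723 in PBS 1 and PBS 2 and 7481 and 4265 in TSLP 1 and TSLP 2. The highest and the lowest values are those of PBS 1 and TSLP 2, and TSLP 1 lies between the PBS libraries. The means were 7654 ± 4145 with PBS and 5873 ± 2274 with TSLP (SD, n = 2 each). The log2 difference was −0.32 (SE 0.40, 95% interval −1.22 to 0.58, limma adjusted p = 0.999874). Its sign turned without PBS 1 (0.26) and without TSLP 2 (0.081). The signs of Fosb, Junb and Atf3 turned without the same libraries, to 0.033, 0.14 and 0.12 without PBS 1 and to 0.18, 0.0056 and 0.15 without TSLP 2. With the trend over exon length removed, the differences were −0.20 for Fos, −0.32 for Fosb, −0.066 for Fosl2 and −0.27 for Jun. They were −0.18 for Junb, −0.11 for Jund, −0.14 for Atf3 and 2.36 for the scarcely detected Fosl1.

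Fosb (chromosome 7, 19302696 to 19310051), a Fos paralog induced with it, had normalized counts of 8775, 5671, 7983 and 4218 in PBS 1, PBS 2, TSLP 1 and TSLP 2. Again the libraries numbered 1 were the high ones, and the groups overlapped. The log2 difference between TSLP and PBS was −0.28 (SE 0.34, 95% interval −1.05 to 0.49). Fosl2 (chromosome 5, 32135801 to 32157842), a FRA protein gene with more lasting expression than Fos, had 9918, 10831, 12148 and 9682. It was the flattest of the 7 abundant genes, with a log2 difference of 0.07 (SE 0.25, 95% interval −0.49 to 0.62).

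Fosl1 was near the limit of detection. It had 0, 24, 22 and 23 reads in PBS 1, PBS 2, TSLP 1 and TSLP 2, so only PBS 1 stood apart. No reads allow up to 3 reads, or 0.265 cpm (reads scaled to the library's reads on genes) in PBS 1. The log2 difference between TSLP and PBS was 2.22 with an SE of 1.81 on the log2(normalized count + 1) scale, but 0.89 by edgeR, 0.90 by DESeq2 and 0.92 with a pseudocount of 8. Without PBS 1 it was −0.10. Of 770 genes with 20 to 30 reads in their highest library, 81.3% had 0 reads in at least 1 library. The pattern of Fosl1, 0 reads in 1 library and 20 to 30 in each of the other 3, was that of 4 of the 770 (0.519%). In the annotation, 1163 exon bases of Fosl1 overlap exons of Ccdc85b on the opposite strand, and the strand setting of the counting was not given in the sources used here.

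In the Jun family, Junb (chromosome 8, 84974484 to 84978718), the most abundant of them, had normalized counts of 27687 and 14790 in PBS 1 and PBS 2 and 20314 and 13093 in TSLP 1 and TSLP 2. Both TSLP values are lower than PBS 1, and TSLP 1 exceeds PBS 2. Its means were 21238 ± 9120 with PBS and 16703 ± 5106 with TSLP (SD, n = 2 each), and the log2 difference was −0.31 (SE 0.36, 95% interval −1.13 to 0.51). Jun (chromosome 4, 95049034 to 95052222, a single exon), the founding member of the family and the partner of Fos, had 2385, 1673, 1829 and 1362. The TSLP value was below PBS in each pair, yet TSLP 1 was above PBS 2, and the log2 difference was −0.34 (SE 0.26, 95% interval −0.93 to 0.25).

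Jund (chromosome 8, 70698949 to 70700616, a single exon), the Jun gene that resting cells express steadily, had normalized counts of 4690 and 3017 in PBS 1 and PBS 2 and 3178 and 3084 in TSLP 1 and TSLP 2. PBS 1 alone was high. The log2 difference was −0.26 (SE 0.26, 95% interval −0.84 to 0.31), and it was 0.05 without PBS 1. In the annotation, 877 exon bases of Jund overlap the antisense gene Gm11175, and Jun and Junb share 232 and 173 exon bases with Junos and Prdx2 on the opposite strand.

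Atf3 (chromosome 1, 191170296 to 191218039) had normalized counts of 2130 and 1231 in PBS 1 and PBS 2 and 1797 and 996 in TSLP 1 and TSLP 2. The libraries numbered 1 were again high in each group. Its log2 difference between TSLP and PBS was −0.27 (SE 0.35, 95% interval −1.06 to 0.51). Its neighbour on the chromosome, Batf3 (191097847 to 191108945), had 22 reads in PBS 1 and 0 in the other 3 libraries, and it was not tested. Of the 770 genes with 20 to 30 reads in their highest library, 19.9% had 0 reads in the other 3.

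**Figure D2:**
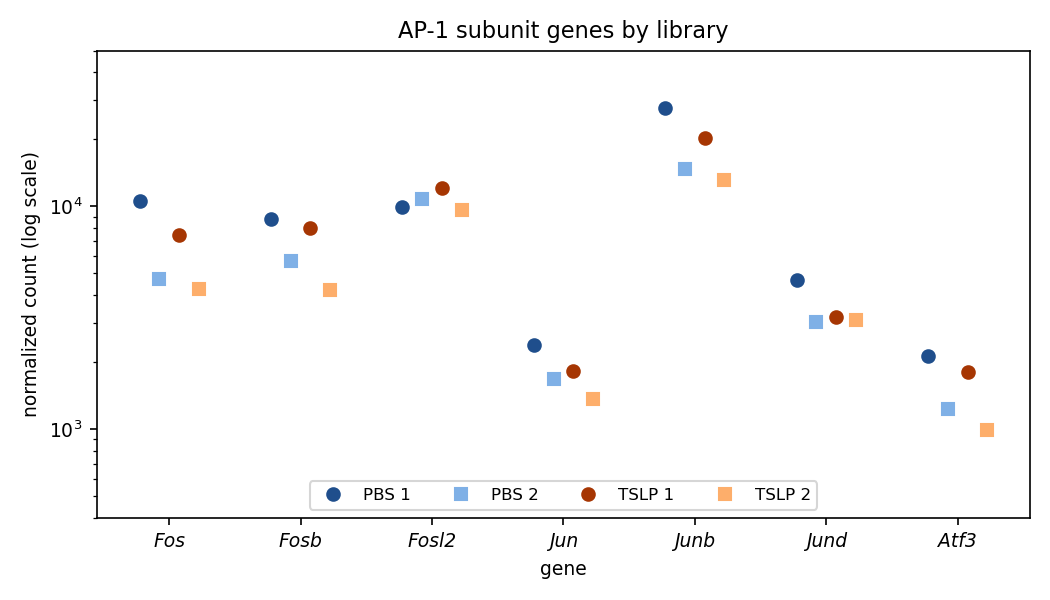
Normalized count (vertical log axis) of the 7 abundant AP-1 genes in the PBS (blue) and TSLP (orange) libraries, with circles for libraries numbered 1 and squares for those numbered 2. For Fos, Fosb, Jun, Junb and Atf3 the circles sit above the squares, and the PBS and TSLP values of each gene overlap.

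Library by library, TSLP 1 was set against PBS 1 and TSLP 2 against PBS 2, by the number in the label only, which is not known to pair the libraries. The level in TSLP 1 was 0.707 times that in PBS 1 for Fos, 0.767 times for Jun, 0.734 times for Junb and 0.844 times for Atf3. In TSLP 2 the same genes stood at 0.903, 0.814, 0.885 and 0.809 times PBS 2. Fosb was at 0.910 and 0.744 times, so these 5 genes were lower with TSLP in both pairs, as 22.5% of all genes were. Fosl2 went opposite ways, at 1.23 times in the first pair and 0.894 times in the second, and Jund was at 0.678 and 1.02 times.

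None of the 7 abundant genes moved past 2-fold in either pair. Only Fosl1, at 0 reads in PBS 1, did so in the first pair (20.7% of all genes), and 0 of the 8 did so in the second (15.4%). Each pair compares 1 library with 1 library and has no replicate check.

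The second comparison set replicate 1 against replicate 2 within each group. Here Fos, Fosb, Junb and Atf3 stood higher in the libraries numbered 1 in both groups, by 1.55-fold to 2.24-fold. The difference was taken from limma with the treatment as a term, so that both groups contribute. With so few libraries for these terms, the p-values of this fit lean on a variance shared across genes. At an adjusted p under 0.05 limma called 0 of the 8 genes and 0% of all genes. edgeR called 0 genes. DESeq2 called 4, none of them an AP-1 gene: Gadd45b and Ppp1r15a (adjusted p = 0.0245 each), Hspa1a (0.0304) and Eps8l1 (0.0402), each higher in replicate 1. At an unadjusted p under 0.05, 4 of the 8 passed, against 3.99% of all genes (455 genes, with 424 by edgeR and 463 by DESeq2). All 4 were higher in replicate 1, a direction in which 1.83% of all genes passed.

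For Fos the ratio of replicate 1 to replicate 2 was 2.24 with PBS and 1.75 with TSLP. The log2 difference was 0.99 (SE 0.27, 95% interval 0.40 to 1.57), with an unadjusted p of 0.00284 and an adjusted p of 0.952 by limma. For Atf3 the ratios were 1.73 and 1.81, and the log2 difference 0.82 (SE 0.24, unadjusted p = 0.00487). These ratios are larger than any TSLP-to-PBS ratio of the same genes, in either direction, within a pair.

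Fosb had ratios of 1.55 and 1.89 and a log2 difference of 0.77 (SE 0.27, unadjusted p by limma 0.0129). Junb had 1.87 and 1.55, with 0.77 on the log2 scale (SE 0.34, unadjusted p by limma 0.0422). Without a trend of the prior variance over expression, an option added after seeing the data, the unadjusted p of Fos, Fosb, Junb and Atf3 lay between 0.0528 and 0.0874. Junb also missed the threshold with no filter on low values (unadjusted p by limma 0.0530) and with quantile normalization (0.0632). Jun was higher by 1.426-fold and 1.343-fold (log2 difference 0.47, SE 0.24, unadjusted p by limma 0.0748).

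The steadily expressed Jund differed 1.56-fold in the PBS cells and 1.03-fold in the TSLP cells. Fosl2 was at 0.916 times with PBS and 1.26 times with TSLP, with a log2 difference of 0.10 (SE 0.30, 95% interval −0.55 to 0.75). Neither gene exceeded 1.5-fold in both groups. Fosl1 was lower in replicate 1, by its 0 reads in PBS 1.

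**Figure D3:**
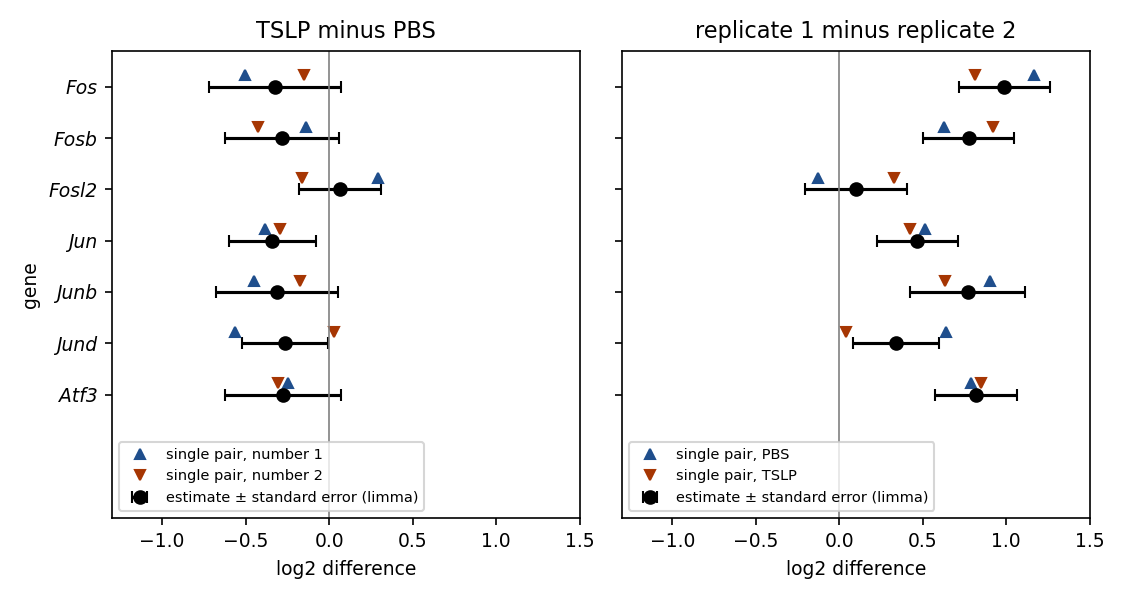
Log2 differences of the 7 abundant AP-1 genes, TSLP minus PBS in the left panel and replicate 1 minus replicate 2 in the right, with the limma estimate and its standard error in black and the single pairs of libraries as triangles. Between TSLP and PBS the pairs of Fosl2 and Jund lie on opposite sides of 0, and between replicates the pairs of Fos, Fosb, Junb and Atf3 all lie above 0.5.

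Replicate 1 was above replicate 2 in both groups for 6 of the 8 genes, all but Fosl1 and Fosl2. Among all genes this held for 24%, and the opposite for 25.6%. Both libraries numbered 1 lay above both numbered 2 for the same 6 genes (17.2% of all genes). A ratio above 1.5 in both groups was seen for 4 of the 8, again Fos, Fosb, Junb and Atf3, and for 4.05% of all genes. With the trend over exon length removed, it was seen for 2 of the 8, Fos and Fosb, and for 3.44% of the 10944 genes of known length. The median log2 difference of the 8 genes was 0.62, and that of all genes −0.02. The 9 genes are related and partly co-induced, so they are not independent of each other.

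**Figure D4:**
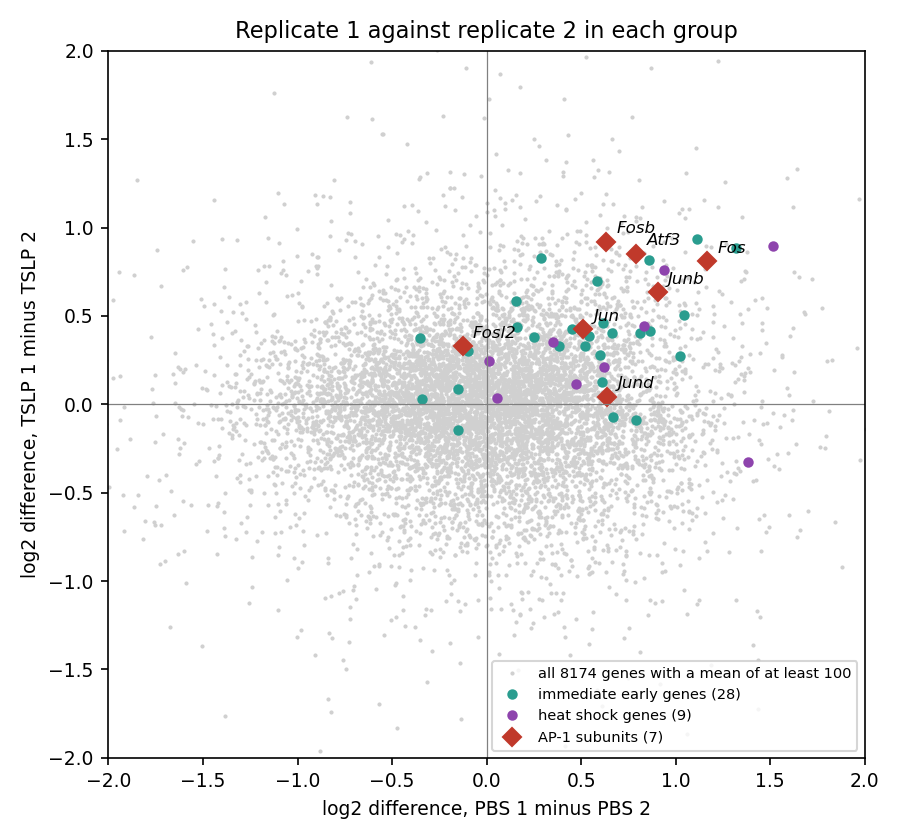
Log2 difference replicate 1 minus replicate 2 in the PBS cells (horizontal axis) and in the TSLP cells (vertical axis) for the 8174 genes of mean normalized count of at least 100 (grey), with 7 AP-1 genes (red), immediate early genes (green) and heat shock genes (purple) marked; 72 of the 8174 genes, Ier3 among them, lie outside the axes. Fos, Fosb, Junb, Atf3 and Jun sit in the upper right, Jund on the horizontal axis and Fosl2 nearer the origin.

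The libraries also differed from each other in a way that followed exon length. Over 2635 genes of mean normalized count of at least 1000, Spearman's rho between exon length and a library's deviation from the mean of the other 3 was −0.659 and 0.571 in PBS 1 and PBS 2 and 0.4 and 0.307 in TSLP 1 and TSLP 2, given as a description across genes. Shorter transcripts were thus relatively high in PBS 1. For each of the other 3 libraries the reference mean includes PBS 1, so their values are not independent of that library. The median exon length of the 9 AP-1 genes was 2301 bases, against 4466 for the tested genes. Fosb (6243 bases) and Fosl2 (9680 bases) were longer than that, and the other AP-1 genes were shorter.

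With that trend removed, the log2 difference of Fos between PBS 1 and PBS 2 went from 1.16 to 0.84, and between TSLP 1 and TSLP 2 from 0.81 to 0.82. For Fosb it went from 0.63 to 0.77 with PBS and from 0.92 to 0.90 with TSLP. Junb went from 0.90 to 0.57 and from 0.63 to 0.65, and Atf3 from 0.79 to 0.43 and from 0.85 to 0.88, so the values of Fos, Junb and Atf3 were smaller in the PBS cells. The unadjusted p by limma was then 6.39e-05 for Fos and 6.31e-05 for Fosb, both with an adjusted p of 0.117. These p-values, too, lean on the variance shared across genes. Jund went from 0.64 to 0.15 with PBS and from 0.04 to 0.12 with TSLP, and Fosl2 from −0.13 to 0.21 and from 0.33 to 0.30. The median TSLP difference of the 8 genes was −0.16 after removal.

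Of 7 ratios between AP-1 genes, 5 were higher in the libraries numbered 1 in both groups. The 7 pairs were picked by hand and several share Fos, so they are not independent. No share over other gene pairs was computed, and the count describes these pairs only. Fos stood at 6.02 and 3.83 times Jun in PBS 1 and PBS 2, and at 5.55 and 4.25 times in TSLP 1 and TSLP 2 (RPKM ratios). Against Fosl2, Fos was at 4.39 and 1.80 times in PBS 1 and PBS 2 and at 2.54 and 1.81 times in TSLP 1 and TSLP 2. These ratios keep the trend over exon length, and Fosl2 is the longer gene. With the trend removed, the log2 difference between PBS 1 and PBS 2 went from 1.16 to 0.84 for Fos and from −0.13 to 0.21 for Fosl2. The ratio of Fos to Junb ran from 0.312 to 0.374, also higher in the libraries numbered 1. The exceptions were Fos to Fosb (3.20 and 2.21 in the PBS libraries, 2.49 and 2.68 in the TSLP libraries) and Fosb to Junb (0.117 and 0.141, then 0.145 and 0.119).

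The likeness of profiles was measured as the Euclidean distance between log2(normalized count + 1) values over the 4 libraries, each gene centred on its own mean. Among the abundant AP-1 genes, Fosb and Atf3 were closest (0.124), followed by Junb and Atf3 (0.177), while Fos and Fosl2 were 1.05 apart. Of 8174 genes with a mean normalized count of at least 100, the nearest to Fos were Marcksl1 (0.0339), Prdx5 (0.100), Ppp1r15a (0.105), Ifngr2 (0.111) and Gadd45b (0.124). The nearest to Jun were Klhdc4 (0.0537), Cyth2 (0.0546), Tubb2a (0.0580), Fkbp4 (0.0708) and Arpc1a (0.0711).

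Other genes, of the AP-1 pathway and beyond it, were taken from lists chosen with earlier results of these data known. Their counts, set beside the shares of all genes, are therefore a description and give no independent support. Of 28 immediate early genes tested, 0 reached an unadjusted p under 0.05 for TSLP against PBS (1.69% of all genes). Between the replicates, 9 passed by limma (3.99% of all genes) and all 9 were higher in replicate 1 (1.83%). Gadd45b, a stress sensor of the growth arrest family, had normalized counts of 16566 and 6629 in PBS 1 and PBS 2 and 11194 and 6074 in TSLP 1 and TSLP 2 (log2 difference between replicates 1.10). Ppp1r15a, which brings a phosphatase to the initiation factor eIF2 alpha after stress, had 19013, 8788, 14719 and 7693 (log2 difference 1.02). The other 7 were Ier2, Ier3, Csrnp1, Dusp2, Klf2, Klf4 and the NF-kB inhibitor Nfkbia. Replicate 1 was above replicate 2 in both groups for 21 of the 28 (24% of all genes), and the median log2 difference was 0.44. Egr1, named after its values were seen, was the 1 gene lower in both, with 3248, 3612, 3150 and 3488.

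Of 21 other bZIP factors tested, 0 passed between TSLP and PBS at an unadjusted p under 0.05 (1.69% of all genes). Between replicates 2 passed (3.99% of all genes). These were Maff, a small Maf protein, with normalized counts of 2379, 935, 1443 and 890 in PBS 1, PBS 2, TSLP 1 and TSLP 2, and Cebpb, with 701, 346, 629 and 297. Both were high in the libraries numbered 1. The median of this list was 0.11 between replicates, and 10 of the 21 genes were higher in replicate 1 in both groups (24% of all genes).

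Of 30 upstream kinases and factors, such as the MAP kinases and the serum response factor, 0 passed between TSLP and PBS (1.69% of all genes). Between replicates 1 of the 30, Rps6ka3, which encodes the kinase RSK2, passed at an unadjusted p under 0.05, near the 3.99% of all genes. It was lower in replicate 1, with 1083, 2192, 1976 and 2441. The list's median was −0.04, and 7 of the 30 were higher and 11 lower in replicate 1 in both groups (24% and 25.6% of all genes). Of 8 ligases and mRNA decay factors that act on AP-1 proteins or mRNAs, 0 passed in either comparison (1.69% and 3.99% of all genes). The most abundant of them, Zfp36l1, had 11005, 10969, 12168 and 11299, with little spread. Zfp36l2 had 5949, 6930, 8303 and 6226, and Zfp36, the decay factor tristetraprolin, had 6223, 4345, 5323 and 4234.

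Of 12 tested target genes of NFAT and AP-1 in T cells, Il13 alone stood at an unadjusted p under 0.05 with TSLP (1.69% of all genes). Its reads numbered 25 and 29 in the TSLP libraries against 0 in each PBS library, so it entered the test only through the group in which it was high, and no support is drawn from that p (limma adjusted p = 0.999874). Between replicates 2 of the 12 passed (3.99% of all genes), both higher in replicate 1 (1.83%). These were Tnf, with normalized counts of 1276, 812, 934 and 634, and Cd40lg, with 827, 363, 1003 and 541. Of 9 heat shock genes, 0 passed with TSLP (1.69% of all genes). Between replicates 3 passed (3.99%), Hspa1a, Hspa1b and Dnajb1, and all 3 were higher in replicate 1 (1.83%). Replicate 1 was above replicate 2 in both groups for 8 of the 9 (24% of all genes). Hspa1a, an inducible chaperone, had 5552, 1944, 3572 and 1919, again high in the libraries numbered 1, and limma called it with a filter at 50 (adjusted p = 0.0288) and with the length trend removed (0.0205).

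Markers of the sorted cells and of other cells are given beside the split between replicates. Foxp3 had 222 and 472 cpm in PBS 1 and PBS 2 and 407 and 470 cpm in TSLP 1 and TSLP 2, lowest in PBS 1 (unadjusted p by limma 0.0472 between replicates). Ctla4 had 1284, 1142, 1198 and 1253 cpm and Tnfrsf18, which encodes GITR, had 532, 348, 356 and 427, both highest in PBS 1. Ikzf2 had 568, 976, 996 and 953 cpm and Il2ra had 342, 446, 433 and 498 cpm, both lowest in PBS 1. Cd4 (512, 587, 528 and 602 cpm) and Cd3e (232, 252, 239 and 261 cpm) were also lowest in PBS 1, by less. The list of 7 Treg and CD4 T cell markers, which includes Cd4 and Cd3e, summed to 3692, 4223, 4157 and 4463 cpm. The markers of conventional T cells summed to 158, 93.6, 143 and 113 cpm, higher in the libraries numbered 1, although only 2 of the 4 markers were so in both groups. Cd40lg, which is also on the NFAT and AP-1 target list, had the highest mean, with 75.3, 33.8, 90.6 and 50.4 cpm, and Igfbp4 had 78.5, 57.2, 49.1 and 60.5. The 7 myeloid markers summed to 17.6, 11.9, 8.59 and 9.83 cpm. Cd68, the most abundant, had 174, 66, 59 and 16 reads, while Lyz2 had 1, 43, 37 and 40. Itgam, Csf1r and S100a8 had at most 27 reads in a library, and Adgre1 and S100a9 had 0. B cell markers summed to 0.618, 10.4, 5.02 and 9.35 cpm. Cd79b, the most abundant of them, had 7, 61, 20 and 87 reads and was lower in replicate 1 (unadjusted p by limma 0.0225). CD8 T cell markers, mostly Cd8b1, summed to 13.4, 7.83, 8.84 and 11.97 cpm, and NK cell markers to at most 2.43 cpm. Of 6 erythroid and platelet markers 5 were at 0 reads. Among stromal and endothelial markers, Col3a1 and Cdh5 were at 0 reads, and Pecam1, which T cells also express, had 176, 158, 118 and 150 cpm. Of the RNA quality genes, Rn45s, a copy of ribosomal RNA, had 5527, 3842, 2518 and 3729 cpm, highest in PBS 1 and lowest in TSLP 1. Lars2, the other gene of that list in the table, had 516, 259, 146 and 205 cpm, lower in both TSLP than in both PBS libraries (log2 difference −1.07, unadjusted p by limma 0.0109, adjusted p 0.999874). The part of these cells, of handling stress or of RNA quality in the AP-1 differences was not tested.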

How the data were processed

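The authors sorted Treg cells, kept them 3 h with TSLP or PBS, and sequenced single-end reads of 50 bases. Per the labels, HISAT2 (genome build mm10), HTSeq and DESeq2 were used, and the annotation is not given in the sources used here. The values deposited by the authors have the unit signal: HTSeq counts, each divided by the library's DESeq2 size factor (0.957 to 1.06). All values came out as whole reads within 0.01, so reads were recovered. The limit of 3 reads for a gene without reads covers counting error only, and the 95% intervals are those of limma. The plan named a count test for whole counts and limma for normalized counts. The deposited unit led to limma 3.58.1 (R 4.3.3, trended prior variance) on log2(normalized count + 1), with Benjamini-Hochberg adjustment over all 11392 genes. Fold changes of low genes depend on the pseudocount of this scale.

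The members and lists were chosen with earlier results of these data known. Named were the 9 members, list genes with an unadjusted p under 0.05 in either fit or otherwise up to 3 of the most abundant, and the 5 genes nearest to Fos and to Jun. In the cell marker and RNA quality lists, further genes were named beyond this rule, among them all 7 Treg and CD4 T cell markers. Alternatives were edgeR 4.0.16, DESeq2 1.42.0, other pseudocounts, filters and scalings, removal of the length trend, a replicate block and leaving out each library. The fits were tested on simulated data.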

Additional observations from a re-analysis of the deposited data

How the results depend on the processing

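Among settings that kept all 4 libraries, the direction of each AP-1 gene held except for Fosl2 between TSLP and PBS, which became −0.066 with the length trend removed, with or without the replicate block. Leaving out single libraries gave these lowest and highest log2 differences between TSLP and PBS: −0.91 and 0.26 for Fos, −0.74 and 0.18 for Fosb, −0.10 and 4.54 for Fosl1, −0.098 and 0.23 for Fosl2, −0.60 and −0.084 for Jun, −0.76 and 0.14 for Junb, −0.58 and 0.053 for Jund, and −0.70 and 0.15 for Atf3. The sign turned without PBS 1 for Fos, Fosb, Fosl1, Junb, Jund and Atf3, without TSLP 2 for Fos, Fosb, Junb and Atf3, and without TSLP 1 for Fosl2. Between replicates only Fosl2 turned, to −0.13 without either TSLP library, with a highest value of 0.33. Without PBS 2, Jund and Fosl1 reached unadjusted p-values of 0.0107 and 0.0197 by limma, in a fit in which 1858 of the 11392 genes passed and PBS 1 alone was assumed to vary like the TSLP libraries.

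The 192 genes at an unadjusted p under 0.05 for TSLP against PBS became 358 with no filter, 427 without a trend of the prior variance (added after seeing the data) and 388 with the replicate block and the length trend removed. Leaving out libraries gave 79 (without TSLP 2) to 1858 (without PBS 2). Genes called between replicates became 4 with DESeq2, 5 with a filter at 50 and 2 with the length trend removed, none of them an AP-1 gene, and those at an unadjusted p became 711 with no filter.

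The replicate block left 0 genes at an adjusted p and 258 at an unadjusted p under 0.05. Over all genes, the deviations of same-number libraries from their group means had r = 0.00072, as a description. What the numbers mark is not given, and a shared source of the libraries of one number was not tested. With 2 libraries a group, the 95% interval of Fos between TSLP and PBS ran from −1.22 to 0.58 on the log2 scale.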
